A study of Sus scrofa with 7 samples.

Results

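The enzymes that write and erase DNA methylation were followed in porcine extra-embryonic endoderm (pXEN) cells, naïve-like ESCs (nESCs) and primed ESCs (pESCs). The set holds 9 genes chosen by name, DNMT1, DNMT3A, DNMT3B, DNMT3L, UHRF1, TET1, TET2, TET3 and TDG, of the 29510 genes listed. Each symbol matched 1 row of the tables, and 8 of the 9 genes passed the filter on low counts that kept 17447 genes. DNMT3L did not pass it.

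DNA methylation is laid down on cytosines of CpG sites by the de novo methyltransferases DNMT3A and DNMT3B, helped by the catalytically inactive DNMT3L, and is copied after replication by DNMT1, which UHRF1 brings to hemimethylated sites. The TET enzymes oxidise 5-methylcytosine, and the glycosylase TDG removes the most oxidised forms, so that base excision repair can restore an unmodified cytosine. In the mouse, the naïve state is known for low and the primed state for high DNA methylation, and the extra-embryonic lineages for lower methylation than the epiblast.

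RNA was sequenced from 3 pXEN lines, 2 nESC lines and 2 pESC lines, with 1 library per line, and each line counted as 1 replicate. The pXEN lines came from inner cell masses of parthenogenetic blastocysts and were kept on mouse embryonic fibroblasts in LCDM medium, which holds hLIF, CHIR99021, (S)-(+)-dimethindene maleate, minocycline hydrochloride and Y27632. They were harvested at passages 26, 26 and 23. The nESCs, at passages 21 and 22, also grew on mouse fibroblasts, with FGF, hLIF, PD0325901, CHIR99021, SB431542 and doxycycline. The pESCs, both at passage 20, were converted from nESCs and kept on STO feeder cells with activin A, bFGF, EGF and hLIF. Cell type, medium and passage thus changed together in every comparison, and the kind of feeder also in those with the pESCs. Their parts in a difference cannot be told apart. No allele or transgene is named for any line, and which nESC line gave which pESC line is not given in the sources used here. The p-values measure the spread between lines of a type.

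The libraries held 10408164 to 12995720 counts on genes, so that 3 counts, the floor taken here, equal 0.231 to 0.288 CPM, that is, counts relative to a library's total. This floor takes in counting error alone. Of 12 markers of extra-embryonic endoderm, such as GATA4 and SOX17, 11 passed the filter, and all 11 were higher in the pXEN lines than in either kind of ESC, while SOX7 stayed at or under 0.0976 FPKM in every library. The pluripotency markers did not follow the labels as a list. Of 7 tested, 3 were lower and 4 higher in pXEN cells than in nESCs, and 5 lower and 2 higher than in pESCs. SOX2 was at 102 to 154 FPKM in the ESC lines and at most 1.98 FPKM in the pXEN lines, but NANOG was highest in the pXEN lines, at 4.50 to 15.5 FPKM, against 0 and 0.148 FPKM in the nESC lines and 1.43 and 1.41 FPKM in the pESC lines. TDGF1 and OTX2 were also higher in pXEN cells than in nESCs. So was UTF1, but near the floor, with 4, 21 and 3 counts in the pXEN lines and 0 and 1 in the nESC lines. POU5F1 was at or under 5 counts in all 7 libraries. The paper reports its product OCT4 in nESCs by Western blotting and in pESCs by immunostaining. It found no NANOG in pXEN cells by immunostaining, real-time PCR or Western blotting. The POU5F1 and NANOG values given here differ from those assays, and the cause was not tested. pXEN line 2 stood apart from the other pXEN lines. The 9 listed genes of a fibroblast marker list summed to 247 FPKM in it, against 17.8 and 20.6 FPKM in pXEN lines 1 and 3, 31.9 to 37.4 FPKM in the nESCs and 58.2 to 89.9 FPKM in the pESCs. It also held 38 counts on chromosome Y, where the other 6 libraries held 0 to 11. The fibroblast marker sum of line 2 was mostly collagen, with COL1A1 at 144, COL3A1 at 77.5 and COL1A2 at 21.1 FPKM, whereas TWIST1 was at 0.192 FPKM there and at 15.9 to 28.1 FPKM in the ESC lines, and DCN at 1.40 FPKM there and at 18.3 and 38.8 FPKM in the pESC lines. Results that change without this line are given both ways.

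DNMT3B was about 9 times lower in the pXEN lines than in the pESCs, whereas DNMT3A was high in pXEN lines and pESCs and low in nESCs. The pXEN lines also held less DNMT1 than either kind of ESC and more TET2. Levels are given below as FPKM, in which the authors scaled fragments by gene length and by a total for each library, and differences as log2 fold changes with their standard errors and adjusted p-values (quasi-likelihood test of edgeR, Benjamini-Hochberg over all genes tested). In such bulk samples, fewer cells of a type and less RNA per cell cannot be told apart.

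**Figure D1:**
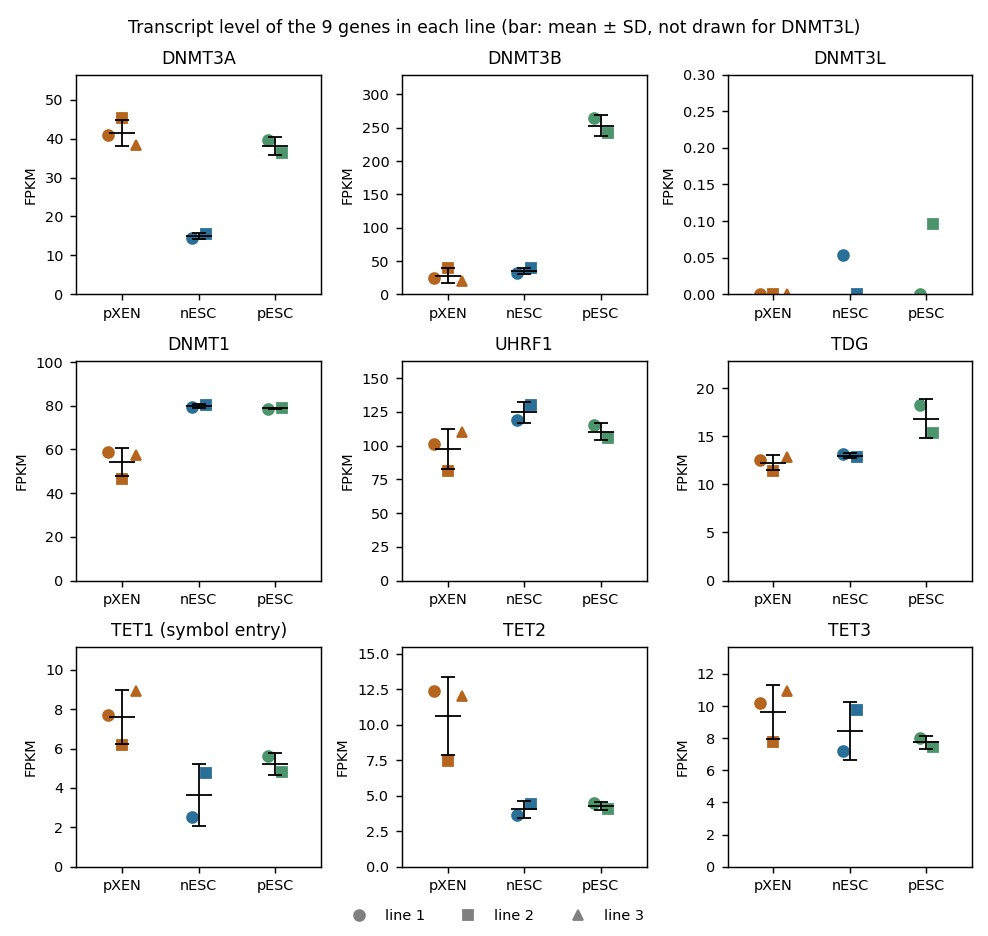
FPKM of each of the 9 genes (vertical axes from 0, with a scale of their own in each panel) in the 3 pXEN, 2 nESC and 2 pESC lines. Points are lines and black bars the mean ± SD of a cell type. DNMT3B stood at 242 to 264 FPKM in the pESCs and at no more than 40.3 FPKM elsewhere, and DNMT3L lay under 0.1 FPKM in every line.

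DNMT3A (ENSSSCG00000029413, chr3:120640567-120657717, plus strand, Sscrofa10.2) is one of the catalytic de novo methyltransferases. Its FPKM was 40.8, 45.2 and 38.4 in pXEN lines 1, 2 and 3, 14.5 and 15.5 in the nESC lines, and 39.7 and 36.4 in the pESC lines. The nESC lines therefore lay apart, below every other library, and the pXEN and pESC lines overlapped. Against nESCs, DNMT3A was 2.76-fold higher in pXEN cells (log2 fold change 1.46 ± 0.12 SE, adjusted p = 3.6e-05) and 2.51-fold higher in pESCs (1.33 ± 0.13 SE, adjusted p = 0.000259). These 2 comparisons share the nESC libraries. Between pXEN cells and pESCs the difference of 0.13 had a 95% interval from −0.13 to 0.40 (adjusted p = 0.373).

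DNMT3B (ENSSSCG00000007252, chr17:41298141-41322901, plus strand) is the other catalytic de novo enzyme and a known marker of the primed state. Its FPKM was 24.4, 40.3 and 19.6 in the pXEN lines, 32.1 and 38.8 in the nESC lines, and 264 and 242 in the pESC lines. Both pESC lines exceeded all other libraries, and only 1.39% of the genes tested had a higher mean FPKM than DNMT3B in the pESCs, compared with 13.7% in the nESCs and 19.6% in the pXEN lines. The transcript was 8.94-fold lower in pXEN cells than in pESCs (log2 fold change −3.16 ± 0.28 SE, adjusted p = 7.23e-05) and 7.06-fold higher in pESCs than in nESCs (2.82 ± 0.32 SE, adjusted p = 0.000534).

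Between pXEN cells and nESCs the call on DNMT3B turned on 1 library. With all lines the difference was −0.34, with a 95% interval from −0.97 to 0.29 (adjusted p = 0.324), since pXEN line 2 lay above both nESC lines and pXEN lines 1 and 3 lay below them. Without pXEN line 2 the difference was −0.70 (adjusted p = 0.00179), and DNMT3B was called lower in the pXEN cells. The summed fibroblast markers, mostly collagens, were also high in line 2, as given above, and their part in its DNMT3B level was not tested.

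DNMT3L (ENSSSCG00000028741, chr13:216997925-217011817, minus strand), the cofactor without catalytic activity, was close to absent from these libraries. It had 0 counts in each pXEN line, 1 and 0 counts in the nESC lines, and 0 and 2 counts in the pESC lines. All 7 values lay under the floor of 3 counts, which for this gene corresponds to 0.144 to 0.197 FPKM, so no cell type could be set above another and no fold is given.

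DNMT1 (ENSSSCG00000013659, chr2:69309460-69357860, minus strand), the maintenance methyltransferase, was lower in the pXEN lines. Its FPKM was 58.6, 46.6 and 57.4 in the pXEN lines, 79.4 and 80.5 in the nESC lines, and 78.5 and 79.0 in the pESC lines. All 3 pXEN lines lay below all 4 ESC lines. The pXEN cells held 1.48-fold less than the nESCs (log2 fold change −0.57 ± 0.11 SE, adjusted p = 0.00376) and 1.45-fold less than the pESCs (−0.53 ± 0.11 SE, adjusted p = 0.00602). The nESC and pESC lines differed by −0.04, with a 95% interval from −0.33 to 0.26 (adjusted p = 0.867).

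UHRF1 (ENSSSCG00000013517, chr2:74678784-74711249, minus strand) recognises hemimethylated CpG sites and recruits DNMT1. Its FPKM was 101, 81.3 and 110 in the pXEN lines, 119 and 130 in the nESC lines, and 115 and 106 in the pESC lines. The pXEN lines lay below the nESC lines and overlapped with the pESC lines. With nESCs as the reference the log2 difference was −0.36 (95% interval −0.68 to −0.05), and the adjusted p of 0.0519 missed the threshold of 0.05, which 5 of 17 alternative analyses passed. It was −0.17 against pESCs (interval −0.49 to 0.14, adjusted p = 0.332) and −0.19 between pESCs and nESCs (interval −0.54 to 0.15, adjusted p = 0.371). UHRF1 exceeded DNMT1 in FPKM in every library, with a ratio of 1.80 ± 0.11 (SD, n = 3) in pXEN cells, 1.56 ± 0.082 (SD, n = 2) in nESCs and 1.40 ± 0.087 (SD, n = 2) in pESCs.

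TET2 (ENSSSCG00000009157, chr8:125011420-125136835, minus strand) oxidises methylcytosine, as the other TETs do, and rose in pXEN cells against nESCs and against pESCs. Its FPKM was 12.4, 7.45 and 12.0 in the pXEN lines, 3.63 and 4.45 in the nESC lines, and 4.46 and 4.05 in the pESC lines. Even the lowest pXEN line, line 2, lay above all 4 ESC lines, and the nESC and pESC lines overlapped. TET2 was 2.61-fold higher in pXEN cells than in nESCs (log2 fold change 1.39 ± 0.23 SE, adjusted p = 0.00149) and 2.51-fold higher than in pESCs (1.33 ± 0.23 SE, adjusted p = 0.00220). Without pXEN line 2 these values were 1.58 and 1.52. The pESCs and nESCs differed by 0.06, with a 95% interval from −0.51 to 0.63 (adjusted p = 0.885).

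TET3 (ENSSSCG00000008292, chr3:72080815-72176994, minus strand), known as the oxidase of the zygote, was not called in any of the 3 comparisons with all lines. Its FPKM was 10.2, 7.74 and 11.0 in the pXEN lines, 7.18 and 9.75 in the nESC lines, and 8.02 and 7.47 in the pESC lines. All 3 cell types overlapped. The log2 difference was 0.18 between pXEN cells and nESCs (95% interval −0.25 to 0.61, adjusted p = 0.445), 0.32 between pXEN cells and pESCs (−0.11 to 0.76, adjusted p = 0.193), and −0.14 between pESCs and nESCs (−0.61 to 0.33, adjusted p = 0.636). Without pXEN line 2 the difference from the pESCs was 0.45 (adjusted p = 0.0306).

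TET1, the family member best known from pluripotent cells, is broken into 3 entries in the annotation used by the authors, of which 1 carries the symbol. The symbol's entry (ENSSSCG00000021080, 845 bases, bases 8090 to 13862 of an unplaced scaffold) held only 7.80% of the counts of the 3. Its FPKM was 7.68, 6.17 and 8.93 in the pXEN lines, 2.53 and 4.76 in the nESC lines, and 5.62 and 4.83 in the pESC lines, from 26 to 83 counts per library. Every pXEN line lay above the 4 ESC lines, and the 2 nESC lines were far from each other. The pXEN cells were 2.07-fold above the nESCs (log2 fold change 1.05 ± 0.36 SE, adjusted p = 0.0390), a call that was lost in 8 of 17 alternative analyses, such as without nESC line 1 (0.66, adjusted p = 0.218). The differences of 0.55 from the pESCs (95% interval −0.27 to 1.36, adjusted p = 0.236) and of 0.50 between pESCs and nESCs (−0.40 to 1.40, adjusted p = 0.364) were not called.

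Most TET1 counts lay in an entry without a symbol that the tables describe as TET1 (ENSSSCG00000030141, 4287 bases, bases 245 to 5272 of another scaffold). It had 665, 861 and 798 counts in the pXEN lines, 410 and 472 in the nESC lines, and 686 and 660 in the pESC lines, or 15.7, 17.4, 16.9, 7.88, 9.41, 12.7 and 11.4 FPKM in that order. On this entry the 3 cell types separated, with the pXEN lines highest, the pESC lines next and the nESC lines lowest. Its log2 fold change was 0.94 ± 0.13 SE between pXEN cells and nESCs (adjusted p = 0.000528), 0.48 ± 0.13 SE between pXEN cells and pESCs (adjusted p = 0.0152) and 0.46 ± 0.14 SE between pESCs and nESCs (adjusted p = 0.0366). The remaining entry (ENSSSCG00000010241, 996 bases, chr14:77827790-77828785, plus strand) held 9 to 29 counts per library. With the counts of the 3 entries summed, an alternative chosen after the data were seen, TET1 was called in all 3 comparisons, at 0.96 (adjusted p = 0.000482), 0.48 (adjusted p = 0.0156) and 0.48 (adjusted p = 0.0311).

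DNMT3A also had a further entry without a symbol (ENSSSCG00000028366, 946 bases, chr3:120476759-120585993, plus strand), but there the symbol's entry held 93.0% of the counts. The small entry had 75, 55 and 79 counts in the pXEN lines, 39 and 27 in the nESC lines, and 102 and 134 in the pESC lines. It was higher than in nESCs in both pXEN cells (log2 fold change 1.23, adjusted p = 0.0136) and pESCs (1.69, adjusted p = 0.00834), while pXEN cells and pESCs differed by −0.46 (adjusted p = 0.244). Summing both entries gave 1.45, 0.09 and 1.36 for DNMT3A in the comparisons of pXEN cells with nESCs, of pXEN cells with pESCs and of pESCs with nESCs.

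**Figure D2:**
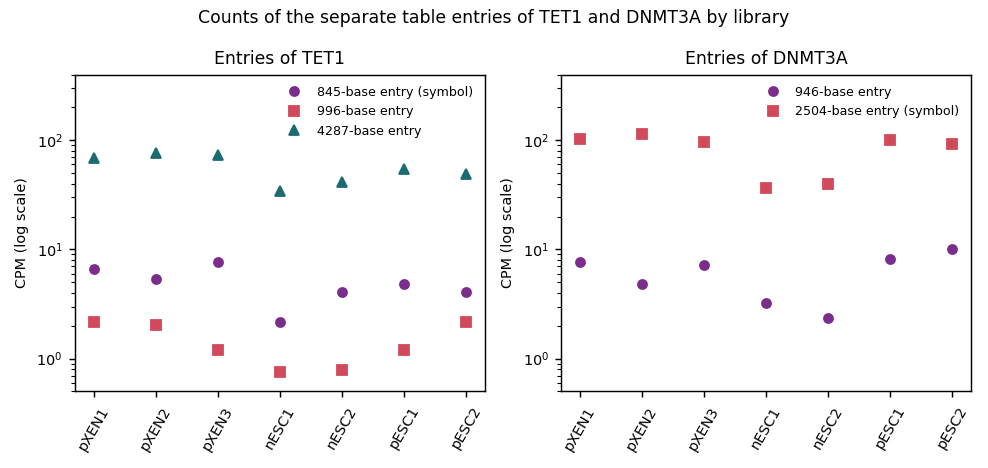
CPM on a log scale of the 3 table entries of TET1 (left) and the 2 of DNMT3A (right) in each library, with the entry's length in the legend. The 4287-base entry of TET1 without a symbol lay above the symbol's 845-base entry in all 7 libraries and separated the cell types, and the symbol's entry of DNMT3A lay above the 946-base entry throughout.

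TDG (ENSSSCG00000000847, chr5:84047853-84067216, minus strand), the glycosylase that excises oxidised methylcytosine, was highest in the pESCs. Its FPKM was 12.5, 11.4 and 12.8 in the pXEN lines, 13.2 and 12.9 in the nESC lines, and 18.3 and 15.4 in the pESC lines. The pESC lines lay above all other libraries, and the pXEN lines just below the nESC lines. TDG was 1.37-fold lower in pXEN cells than in pESCs (log2 fold change −0.45 ± 0.12 SE, adjusted p = 0.0172). This call was lost without pESC line 1, at −0.32 (adjusted p = 0.157). The pESCs and nESCs differed by 0.36 (95% interval 0.05 to 0.67, adjusted p = 0.0792), a difference called without pXEN line 2 (adjusted p = 0.0366), and the pXEN cells and nESCs by −0.09 (−0.38 to 0.20, adjusted p = 0.558). The gene lies within the listed interval of HSP90B1 on the same strand, which had up to 20780 counts, and how reads shared by both genes were counted is not given in the sources used here.

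Of the 8 members tested, 4 were called between pXEN cells and nESCs, DNMT3A, TET1 and TET2 higher and DNMT1 lower, where 54.5% of all genes tested were called (28.3% higher and 26.2% lower). The comparison of pXEN cells with pESCs called 4 members, TET2 higher and DNMT1, DNMT3B and TDG lower, against 48.3% of all genes (23.9% higher and 24.4% lower). Between pESCs and nESCs 2 members were called, DNMT3A and DNMT3B, both higher in the pESCs, against 32.2% of all genes (19.0% higher and 13.3% lower). The 2 groups did not overlap in CPM for 6, 5 and 6 of the 8 members in these comparisons, and for 70.9%, 68.1% and 72.5% of all genes. The shares of members called were thus near those of all genes. The median log2 fold change of the members was 0.04, −0.02 and 0.21, beside 0.00, −0.01 and 0.01 for all genes tested. With upper-quartile scaling the median between pXEN cells and nESCs was −0.13 for the members and −0.16 for all genes. The 3 comparisons share libraries in pairs and are not independent of each other.

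**Figure D3:**
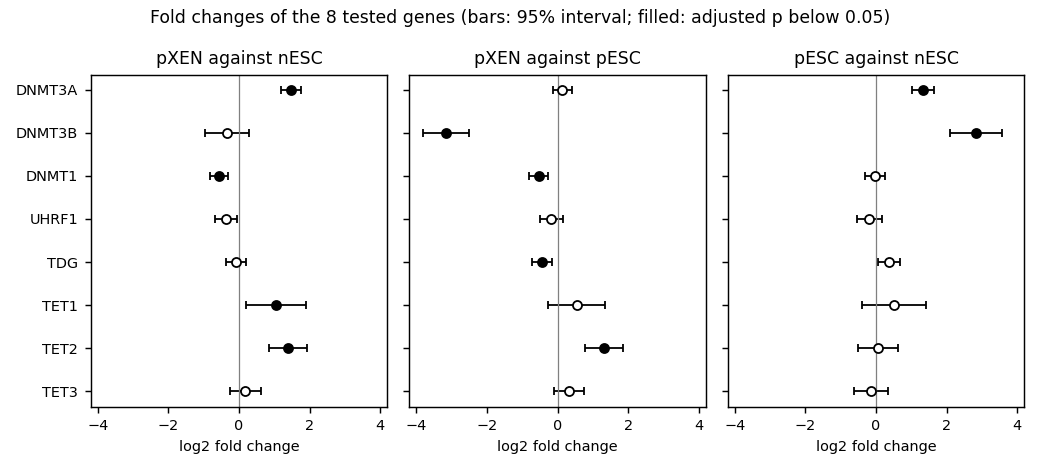
Log2 fold changes (horizontal axis, first cell type minus second) of the 8 tested genes in the 3 comparisons, with 95% intervals and filled points for adjusted p below 0.05. DNMT3B lay at −3.16 between pXEN cells and pESCs and at 2.82 between pESCs and nESCs, and DNMT3A and TET2 were the members with the largest rise between pXEN cells and nESCs.

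Ratios between enzymes within a library are free of the scaling between libraries, whereas sums of FPKM depend on it. Both are given here as a description without a test. DNMT3A was the leading de novo transcript in the pXEN lines and DNMT3B in the ESCs. The ratio of DNMT3B to DNMT3A in FPKM was 0.599, 0.891 and 0.510 in the pXEN lines, 2.22 and 2.50 in the nESC lines, and 6.64 and 6.66 in the pESC lines. With both entries of DNMT3A counted, pXEN line 2 passed 1, at 1.18, and the other pXEN lines stayed at 0.768 and 0.654. DNMT3A and DNMT3B together gave 65.2, 85.4 and 58.0 FPKM in the pXEN lines, 46.6 and 54.3 FPKM in the nESC lines, and 304 and 278 FPKM in the pESC lines.

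The TET transcripts, with TET1 taken over its 3 entries, summed to 35.0, 28.6 and 36.2 FPKM in the pXEN lines, 16.8 and 21.6 FPKM in the nESC lines, and 22.3 and 20.5 FPKM in the pESC lines. Every pXEN line lay above every ESC line in this sum. TET2 made up 35.4%, 26.1% and 33.1% of it in the pXEN lines, 21.6% and 20.6% in the nESC lines, and 20.0% and 19.7% in the pESC lines. TET1 made up 35.5%, 46.8% and 36.6% in the pXEN lines, 35.6% and 34.2% in the nESC lines, and 44.1% and 43.9% in the pESC lines, and TET3 the rest. TET1 thus led in the pXEN and pESC lines, though almost level with TET2 in pXEN line 1, and TET3 in the nESC lines. This order turned with the choice of entries, made after the data were seen. With the symbol's entry of TET1 alone, TET3 led in the pESC lines, at 44.3% and 45.7%, and TET2 in pXEN lines 1 and 3, at 40.9% and 37.6%, with TET3 ahead in pXEN line 2, at 36.2%. The ratio of the 2 de novo enzymes to the TETs was 1.86, 2.99 and 1.60 in the pXEN lines and 2.78 and 2.52 in the nESC lines, which overlapped, and 13.6 in each pESC line.

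**Figure D4:**
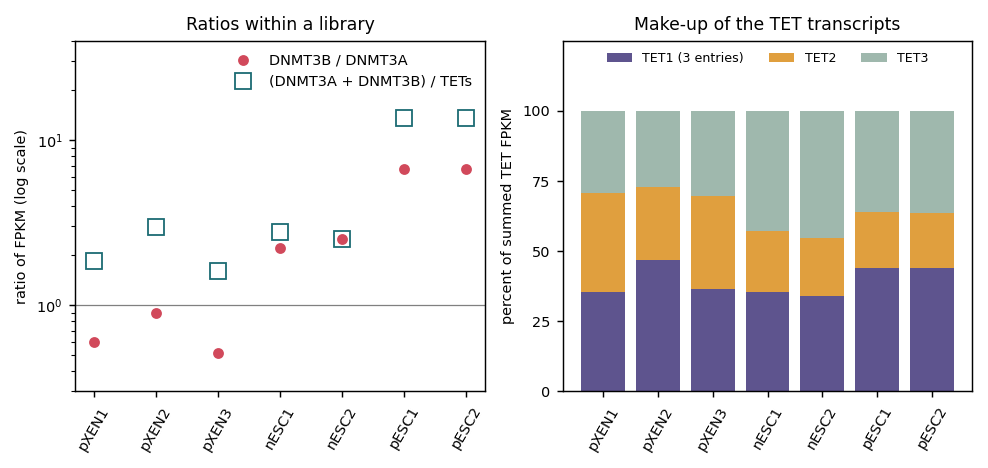
Left, ratios of FPKM within each library on a log scale, DNMT3B to DNMT3A and the sum of both to the sum of the TETs. Right, the percent of summed TET FPKM from TET1 (3 entries), TET2 and TET3 in each library. The ratio of DNMT3B to DNMT3A lay under 1 in the 3 pXEN lines, at 2.22 and 2.50 in the nESC lines and at 6.64 and 6.66 in the pESC lines.

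Among the pXEN lines, line 2 was the highest for DNMT3A and DNMT3B and the lowest for the other 6 tested members, with TET1 taken by the symbol's entry. On the larger entry of TET1 and over its 3 entries, line 2 was instead the highest. It thus stood at an end of the range for 8 of 8 members, and did so for 81.5% of the 15027 tested genes with a pXEN mean of at least 10 counts, of which it was the lowest line for 38.9%. The highest pXEN line exceeded the lowest by 2.05-fold for DNMT3B and 1.66-fold for TET2, and by 1.13-fold to 1.45-fold for the others. The median of this ratio was 1.39 for the members and 1.37 for all of those genes, so the members varied among the pXEN lines about as much as other genes. Without line 2, 6 members were called between pXEN cells and nESCs and 5 between pXEN cells and pESCs, while calls over all genes rose as well, from 9514 to 10430 and from 8429 to 9625.

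Genes that act with these enzymes were described by list, with counts of calls and no set test. The shares of all genes called, 54.5%, 48.3% and 32.2% in the 3 comparisons, are the background for each list. The shares of the tested list genes called were, in the same order, 57.1%, 42.9% and 28.6% for partners and regulators, 66.7%, 66.7% and 55.6% for methyl donor and 2-oxoglutarate supply, 44.4%, 44.4% and 33.3% for base excision and repair, 28.6%, 14.3% and 14.3% for readers, and 60%, 30% and 50% for S phase genes. Among 14 tested partners and regulators, 2 were higher and 6 lower in pXEN cells than in nESCs (median log2 fold change 0.00), 1 higher and 5 lower than in pESCs (median −0.24), and 3 were higher and 1 lower in pESCs than in nESCs (median 0.18). The last balance turned with upper-quartile scaling, to 2 higher and 4 lower. CXXC5, a CXXC zinc finger protein known to bind TET2, had 96.5, 101 and 91.7 FPKM in the pXEN lines, 2.57 and 3.04 FPKM in the nESC lines, and 45.4 and 44.3 FPKM in the pESC lines. The 3 cell types did not overlap, with log2 fold changes of 5.10 (adjusted p = 3.22e-07) between pXEN cells and nESCs and 1.11 (adjusted p = 0.000119) between pXEN cells and pESCs.

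NSD1, which methylates histone H3 at lysine 36 and so makes a mark that DNMT3A reads, had 8.83, 5.0 and 8.29 FPKM in the pXEN lines, 22.6 and 29.1 FPKM in the nESC lines, and 34.2 and 29.3 FPKM in the pESC lines. It was lower in pXEN cells by −1.82 against nESCs and −2.10 against pESCs on the log2 scale, and so was CDCA7, the partner of the chromatin remodeller HELLS, by −1.26 and −0.67. SETD2, another H3K36 methyltransferase, was higher in pXEN cells than in nESCs (0.70, adjusted p = 0.0104). It lies on chromosome 13, whose 1129 tested genes had a median of 0.46 in that comparison, and the part of that shift in its value was not tested. SETDB1, an H3K9 methyltransferase, was lower than in nESCs both in pXEN cells (−0.90) and in pESCs (−0.79), and QSER1, known to guard sites from DNMT3 enzymes, was higher in pESCs than in nESCs (0.61).

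Of 9 tested genes of methyl donor and 2-oxoglutarate supply, 3 were higher and 3 lower in pXEN cells than in nESCs (median −0.42), with the same counts against pESCs (median 0.10), and 2 were higher and 3 lower in pESCs than in nESCs (median 0.05). IDH1, the cytosolic enzyme that makes 2-oxoglutarate, which TETs consume, had 235, 347 and 193 FPKM in the pXEN lines, 37.4 and 35.7 FPKM in the nESC lines, and 78.7 and 78.9 FPKM in the pESC lines. All pXEN lines lay above all ESC lines, by a log2 fold change of 2.82 (adjusted p = 5.14e-05) from the nESCs and 1.72 (adjusted p = 0.000658) from the pESCs. The mitochondrial IDH3A fell by 0.87 and 0.49, and IDH2 was lower than in nESCs in pXEN cells (−0.62) and in pESCs (−0.72). AHCYL2, a relative of the S-adenosylhomocysteine hydrolase AHCY, was higher in pESCs than in pXEN cells, with a log2 fold change of −2.01 for pXEN cells against pESCs, and than in nESCs (1.49), and AHCY was lower than in nESCs in pESCs (−0.53) and in pXEN cells (−0.55).

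Of 9 tested genes of base excision and repair, 1 was higher and 3 lower in pXEN cells than in nESCs (median −0.34), 2 were higher and 2 lower than in pESCs (median 0.29), and 3 were lower and 0 higher in pESCs than in nESCs (median −0.26). GADD45G, a stress-response protein linked to repair-based demethylation, stood at 30.3 and 32.8 FPKM in the nESC lines and at 0.130, 1.00 and 0.0584 FPKM in the pXEN lines and 0.611 and 0.715 FPKM in the pESC lines. Both nESC lines lay far above the other 5 libraries. Its log2 fold change was −6.24 between pXEN cells and nESCs (adjusted p = 8.67e-05), with 2, 18 and 1 counts in the pXEN lines, and −5.57 between pESCs and nESCs (adjusted p = 0.000751). XRCC1, the scaffold of single-strand break repair, was lower in pXEN cells by −1.14 against nESCs and −0.61 against pESCs. PARP1 was lower in pXEN cells than in nESCs (−0.74) and pESCs (−0.78), the glycosylases NEIL1 (1.40) and NEIL3 (0.60) were higher in pXEN cells than in pESCs, NEIL3 was higher than in nESCs as well (0.55), and SMUG1 was lower in pESCs than in nESCs (−0.63).

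Of the 7 tested genes on the list named methylation readers, 1 was higher and 1 lower in pXEN cells than in nESCs (median 0.28). Against pESCs 1 was higher in pXEN cells (median −0.06), and 1 was higher in pESCs than in nESCs (median 0.17). ZBTB4, a zinc finger protein that binds methylated CpG, was higher in pXEN cells, at 9.68, 7.65 and 11.9 FPKM, than in nESCs, at 1.58 and 2.38 FPKM (log2 fold change 2.29), or pESCs, at 4.42 and 3.14 FPKM (1.37). MBD3, a subunit of the NuRD complex, was lower in pXEN cells than in nESCs (−0.41), and MBD1 was higher in pESCs than in nESCs (0.57). The latter call was lost with upper-quartile scaling, which left 0 readers higher and 1 lower, and 0 readers were called without nESC line 1, pESC line 1 or pESC line 2.

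DNMT1 and UHRF1 act at the replication fork, so genes of S phase are set beside them. Of 10 tested, 2 were higher and 4 lower in pXEN cells than in nESCs (median −0.27), 1 higher and 2 lower than in pESCs (median 0.08), and 5 lower and 0 higher in pESCs than in nESCs (median −0.37). PCNA, the sliding clamp that binds DNMT1, was at 75.2, 72.2 and 72.8 FPKM in the pXEN lines, 206 and 183 FPKM in the nESC lines, and 117 and 128 FPKM in the pESC lines. It was lower in pXEN cells by −1.41 against nESCs and −0.74 against pESCs, and TYMS, thymidylate synthase, by −1.24 and −0.44. CDT1, a licensing factor, was higher in pXEN cells in both comparisons (0.63 and 0.61), and CCNE1 was lower in pESCs than in nESCs (−1.06). PCNA was lower in pESCs than in nESCs as well (−0.67), where DNMT1 differed by −0.04. Between pXEN cells and both ESC types DNMT1 moved with PCNA, and the part of replication in its level was not tested.

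**Figure D5:**
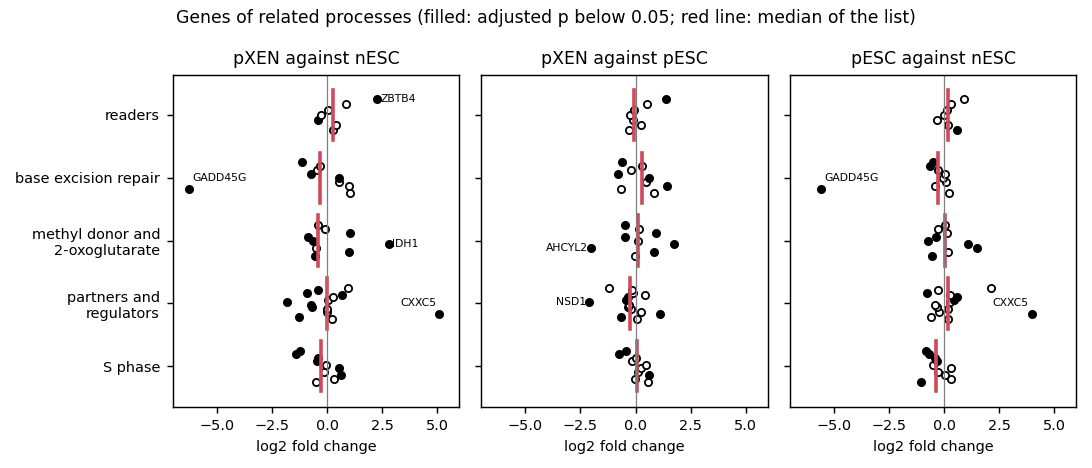
Log2 fold changes (horizontal axis, first cell type minus second) of the tested genes of 5 lists in the 3 comparisons, with filled points for adjusted p below 0.05 and a red line at each list's median. Medians stayed between −0.42 and 0.29, while single genes such as CXXC5 (5.10), IDH1 (2.82) and GADD45G (−6.24) lay far from them.

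In mouse somatic cells, promoter methylation keeps a set of germline genes silent. Of 20 such genes, 15 were listed and 3 passed the filter, and their FPKM summed to 3.17 to 5.18 in the pXEN lines, 4.36 to 4.78 in the nESC lines and 2.70 to 3.94 in the pESC lines. The sums overlapped between pXEN cells and both kinds of ESC. SYCP3, a synaptonemal complex protein, was the called gene between pXEN cells and nESCs (log2 fold change 1.33), at no more than 2.12 FPKM in any line, and its call was lost without nESC line 2. TDRD1, of the piRNA pathway, had 14 and 16 counts in the pESC lines and 0 counts in the other 5 libraries. DNA methylation itself was not measured.

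The genes most like each member over the 7 libraries were named as a description, by Pearson's r of log2(FPKM + 0.1) among 7751 genes (7752 for TET1) with a symbol and a mean of at least 3 log2 CPM. The points are lines of only 3 cell types, so that many genes reach a high r. For DNMT3A they were COTL1 and MYO5B (r = 0.998 for each), for DNMT3B WNT8B (0.996) and PADI2 (0.995), and for TET2 TMEM44 (0.999) and EIF1B (0.995). For DNMT1 TRIM35 (0.994) was among them, for UHRF1 they were NR1D2 (0.987) and IFT122 (0.984), for the symbol's entry of TET1 UBR2 (0.991) was among them, for TDG they were CLYBL (0.979) and STARD3 (0.975), and for TET3 STX6 (0.981) and KMT2D (0.944). The share of candidates with r above 0.9 was 10.1% for TET2 and 8.77% for DNMT3A, and 0.142% for TET3, whose level varied little between the cell types.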

How the data were processed

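Per the labels and the methods of the study, directional libraries of rRNA-depleted RNA were sequenced on an Illumina NovaSeq instrument. The submitters' processing notes name HISAT2 2.0.5, featureCounts 1.5.0-p3, edgeR 3.22.5 and Sscrofa10.2. The authors deposited raw read counts per gene and FPKM per gene. The members were the rows with their symbols. The members and gene lists were chosen with earlier results of these data known. Here the counts were tested with edgeR 4.0.16 in R 4.3.3 (quasi-likelihood test, TMM, filterByExpr, Benjamini-Hochberg, threshold 0.05) in 1 model of all 7 libraries with 4 residual degrees of freedom. The common biological coefficient of variation was 0.223. The fit was tested on simulated data. FPKM was used for levels and ratios. Genes outside the set were named as the 2 largest changes in each direction among the called genes of a list, and as the 2 genes with the highest r. Some genes that this rule names are not reported here. Alternatives were RLE and upper-quartile scaling, other filters, DESeq2 1.42.0, limma 3.58.1 on log2(FPKM + 0.1) and log2(FPKM + 1), 2 groups only, a replicate block, leaving out each library and, chosen after the data were seen, summed entries.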

Additional observations from a re-analysis of the deposited data

How the results depend on the processing

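The calls on DNMT1, DNMT3A and TET2 in the comparisons of pXEN cells with nESCs, on DNMT1, DNMT3B and TET2 between pXEN cells and pESCs, and on DNMT3A and DNMT3B between pESCs and nESCs held under all 17 alternatives. Over the 24 fold changes of members and their alternatives, 384 values kept direction and side of the threshold, 9 lost a call, 10 gained one and 5 changed sign. The sign changes touched differences near 0 that were never called. TET2 between pESCs and nESCs became −0.028 with upper-quartile scaling, and ranged from −0.0825 (without nESC line 1) to 0.22 when 1 library was left out, with −0.0088 without pESC line 1. TET3 ranged from −0.0324 (without nESC line 1) to 0.42 between pXEN cells and nESCs, and from −0.35 to 0.10 (without nESC line 2) between pESCs and nESCs. The cause was not tested.

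The call on TET1 between pXEN cells and nESCs did not hold, by adjusted p, under upper-quartile scaling (0.0723), in a fit of 2 groups only (0.0623), with the replicate block (0.123) and without pXEN line 1 (0.0810), pXEN line 3 (0.102), nESC line 1 (0.218), pESC line 1 (0.0629) or pESC line 2 (0.0612). UHRF1 in that comparison was called with upper-quartile scaling (0.0138), DESeq2 (0.0414), the block (0.0356) and without pXEN line 2 (0.0364) or 3 (0.0277). Over all genes, leaving out 1 library gave 7373 to 10430 calls between pXEN cells and nESCs (9514 with all), 5685 to 9625 between pXEN cells and pESCs (8429) and 3066 to 7560 between pESCs and nESCs (5621), the last with 3318 calls without nESC line 1, 3066 without pESC line 1 and 3122 without pESC line 2. For the lists of readers, repair, supply, partners and S phase genes, calls between pXEN cells and nESCs stayed within 1.5 times the counts given. The germline list had 0 calls without nESC line 2 in that comparison, without pESC line 2 between pXEN cells and pESCs, and in 8 of 16 alternatives between pESCs and nESCs. With at least 10 counts in every library, TDRD1 was not tested, and the 1 germline call between pXEN cells and pESCs was higher instead of lower. A minimum of 10 counts in every library, which removes genes absent from a cell type, left 6, 6 and 5 calls in the endoderm markers, 1 in each comparison in the pluripotency markers and 0 in the fibroblast markers. Between pXEN cells and pESCs they ranged over the alternatives from 1 to 2 readers (1 in the report), 2 to 9 partners (6) and 1 to 5 S phase genes (3), and between pESCs and nESCs from 0 to 3 readers (1), 1 to 3 repair genes (3), 1 to 5 supply genes (5), 1 to 8 partners (4) and 1 to 6 S phase genes (5). Members called without 1 library ranged from 3 to 6, 3 to 5 and 2 to 3. Where a type was left with 1 library, its spread was taken from the other types.

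Upper-quartile scaling moved the median of all genes by −0.16 between pXEN cells and nESCs, and the split of calls there from 4937 higher and 4577 lower to 4348 and 5621. It also turned the members' median in that comparison, to −0.13, with 2 members called higher and 2 lower. Between pESCs and nESCs it turned the calls among partners (2 higher and 4 lower) and readers (0 and 1). The list medians of S phase genes between pXEN cells and pESCs (−0.0078) and of supply genes between pESCs and nESCs (−0.0397) turned as well. Lines with the same number deviated from their type's mean with correlations of −0.00892 to 0.0442, and lines with other numbers with −0.0477 to 0.0477. In a type of 2 lines the deviations mirror each other, so this check cannot tell whether lines with the same number share an origin or a batch. With the replicate block, 8274, 6993 and 5041 genes were called in the 3 comparisons, and 4, 4 and 2 members. Genes under 3 counts, as DNMT3L, could not be compared.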
